A study of Sus scrofa with 16 samples.

Results

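The genes described are those of the porcine major histocompatibility complex (MHC), called swine leukocyte antigen (SLA) in the pig, together with their closest partners in antigen presentation. The list held 10 genes, namely SLA-1, SLA-2, SLA-3, B2M and TAP1 of the class I pathway (4 of these 5 with a probe) and SLA-DRA, SLA-DRB1, SLA-DQA1, SLA-DQB1 and CD74 of the class II pathway. A probe was taken when the array design gave it one of these names as its gene or held the name in brackets in its description, which gave 43 of 43603 probes and 9 of the 10 genes, among 6798 genes with a named probe. No probe was named for SLA-2, although 3 probes of other class I genes also listed an SLA-2 transcript. The class I pathway had 17 probes (SLA-3 8, B2M 5, SLA-1 2, TAP1 2) and the class II pathway 26 (SLA-DQA1 9, SLA-DRA 7, SLA-DRB1 4, SLA-DQB1 4, CD74 2).

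Castrated male Duroc × Landrace × Large White pigs were fed from 70 d of age for 100 d, and colonic mucosa and liver were taken at 170 d. All of them ate a corn and soybean diet with purified starch at 230 g/kg while growing and 280 g/kg while finishing. This was corn starch (CS) in the control group and raw potato starch (RPS), a resistant starch, in the other, and feed was withheld before slaughter. RNA of 4 pigs per diet and tissue was hybridised to 1-colour porcine expression arrays, 1 array per pig and tissue, giving 16 arrays. The colonic samples were scrapings of the proximal mucosa, so both tissues are mixtures of cell types.

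Class I molecules pair a heavy chain, such as SLA-1 or SLA-3, with β2-microglobulin and show peptides made in the cell to cytotoxic T cells. They are found on nearly all nucleated cells. Class II molecules pair an α and a β chain, are held by the invariant chain CD74 until peptide is loaded, and show peptides taken up from outside to helper T cells. They are typical of B cells, dendritic cells and macrophages, and intestinal epithelium can also make them.

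The 60-base probe sequences show how near to each other some of these genes are on the array. The SLA-1 and SLA-3 probes below read the same stretch of the class I heavy chain transcript, and capitals mark the bases at which they differ, 4 of the 59 that overlap (93.2% identity).
SLA-1: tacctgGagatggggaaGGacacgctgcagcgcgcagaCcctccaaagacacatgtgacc
SLA-3: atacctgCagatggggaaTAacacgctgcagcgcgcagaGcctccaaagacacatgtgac
Transcripts this alike can bind both probes, so values of SLA-1 and SLA-3 are for the probe named and are uncertain for the single gene. At this pair, the log2 fold change of RPS against CS was -0.26 for SLA-1 and -0.29 for SLA-3 in the colon and 0.40 and 0.35 in the liver.

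The next pair, both named SLA-DQA1, read 1 stretch of the α chain of class II and differ at 5 of 59 overlapping bases (91.5% identity), again in capitals. They are shown because another colonic array was lowest at this pair than at the brightest SLA-DQA1 probe.
SLA-DQA1, probe A: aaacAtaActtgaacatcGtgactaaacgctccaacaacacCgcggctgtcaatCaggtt
SLA-DQA1, probe B: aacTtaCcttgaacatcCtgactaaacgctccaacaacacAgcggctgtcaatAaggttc
In the colon, SLA-DQA1 probe A read 10.65, 11.82, 12.98 and 11.20 with CS and 10.68, 12.26, 9.46 and 10.94 with RPS (log2 signal of replicates 1 to 4). At probe B of SLA-DQA1 the values were 9.94, 10.78, 12.04 and 10.47 with CS and 9.81, 11.25, 8.48 and 9.89 with RPS. RPS 3 was the lowest array at both, whereas RPS 4 was the lowest at the brightest SLA-DQA1 probe described below.

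The remaining sequences show 1 probe each of B2M, TAP1, SLA-DRA, SLA-DRB1 and CD74, in lower case throughout because no base is singled out. Those of TAP1 and CD74 are the brightest probes, at which the genes are read below, while those of B2M, SLA-DRA and SLA-DRB1 are other probes of the gene. At these 3, colon minus liver was 0.66, 1.75 and 1.90 on the log2 scale, and RPS minus CS was -0.40, -0.91 and -1.09 in the colon and -0.09, -0.19 and -0.64 in the liver.
B2M: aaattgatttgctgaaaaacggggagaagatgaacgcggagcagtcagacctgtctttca
TAP1: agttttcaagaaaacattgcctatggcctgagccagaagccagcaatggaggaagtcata
SLA-DRA: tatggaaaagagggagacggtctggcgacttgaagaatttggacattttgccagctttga
SLA-DRB1: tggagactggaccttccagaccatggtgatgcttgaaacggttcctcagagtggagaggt
CD74: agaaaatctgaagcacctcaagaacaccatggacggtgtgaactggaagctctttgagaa

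Values below are log2 signals after quantile normalization. Each gene is read at its brightest probe over the 16 arrays of both tissues unless another is named. Levels of different probes are not set against each other. Of all probes, 64.9% to 72.2% exceeded background clearly on a colonic array and 61.1% to 65.9% on a hepatic one, and all 43 probes of these genes were so on all 16 arrays, with none saturated. Before normalization, the median signal of the colonic arrays was 56.3 to 70.8 with CS and 34.2 to 42.5 with RPS, without overlap, and each slide held arrays of 1 group, so slide cannot be told apart from diet or tissue. The defining markers fitted the labels: EPCAM, of epithelium, was higher in the colon by 7.53 on the log2 scale, and ALB, of hepatocytes and well above background on 6 of the 8 colonic arrays, differed by -14.90 (limma, adjusted p = 9.06e-10 and 7.43e-16).

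The comparison of colon with liver asked where these genes were read more strongly, over 8 arrays per tissue normalized together and fitted with diet in the model. The labels do not say whether arrays of the same number in both tissues came from 1 pig, and the fit took all arrays as separate animals. All 5 class II genes and TAP1 were higher in the colon, by 3.98-fold (CD74) to 6.11-fold (TAP1), and this held for every one of the 26 class II probes. SLA-1, SLA-3 and B2M did not pass at their brightest probes, where the differences were 0.27, 0.43 and 0.45 on the log2 scale. Of the 43 probes, 34 were higher in the colon at an adjusted p under 0.05 and none was lower, while 28.9% of all probes were higher by this rule and 52.9% passed in either direction. With a fold change above 2 in addition, 26 of 26 class II and 2 of 17 class I probes remained, both of TAP1 (15.9% of all probes). At 13 probes, 12 of class II and 1 of TAP1, every colonic array was above every hepatic one, as at 14.6% of all probes, and 26.8% of all probes kept the tissues apart in either direction. With the replicate number as a block, 31 of the 43 probes passed, and the share of all probes in that fit is not reported here. In bulk tissue, fewer cells of a type and less RNA per cell cannot be told apart.

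SLA-DRA, the α chain of the DR molecule, ranged from 14.29 through a median of 15.90 to 16.49 in the colon and from 13.04 through 13.57 to 14.04 in the liver. Every colonic array of SLA-DRA was above every hepatic one. The difference was 2.19 (95% CI 1.65 to 2.74, SE 0.25, n = 8 and 8), which is 4.57-fold (limma, adjusted p = 4.61e-06), and the 7 SLA-DRA probes gave 1.75 to 2.38.

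SLA-DRB1, the β chain of the same molecule, ranged from 12.36 through 14.78 to 15.48 in the colon and from 11.65 through 12.51 to 12.89 in the liver. The tissues met only through RPS 4, the lowest colonic array of SLA-DRB1. The difference was 2.13 (SE 0.33), 4.37-fold (limma, adjusted p = 7.54e-05), and 1.86 to 2.13 over its 4 probes.

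SLA-DQA1, the α chain of the DQ molecule, ranged from 14.52 through 15.51 to 16.45 in the colon and from 12.50 through 13.03 to 13.53 in the liver. Its partner SLA-DQB1 ranged from 13.83 through 15.20 to 16.03 and from 11.92 through 12.63 to 13.07. Neither gene overlapped between tissues. The differences were 2.55 (SE 0.25, 5.86-fold) for SLA-DQA1 and 2.56 (SE 0.26, 5.91-fold) for SLA-DQB1 (limma, adjusted p = 8.16e-07 and 1.13e-06). The lowest difference at any probe was 1.77 for SLA-DQA1 and 1.81 for SLA-DQB1.

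CD74, the invariant chain, ranged from 10.16 through 11.91 to 13.43 in the colon and from 9.30 through 10.02 to 10.23 in the liver. As for SLA-DRB1, the tissues overlapped through RPS 4 of the colon. The difference for CD74 was 1.99 (SE 0.36), 3.98-fold (limma, adjusted p = 3.27e-04), and 1.71 at its other probe.

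TAP1, which forms part of the pump that carries peptides into the endoplasmic reticulum for class I loading, ranged from 8.45 through 9.70 to 10.25 in the colon and from 6.44 through 6.79 to 8.17 in the liver. The tissues did not overlap. The difference for TAP1 was 2.61 (95% CI 1.99 to 3.23, SE 0.29), 6.11-fold (limma, adjusted p = 2.83e-06), and 2.59 at the other probe. Its neighbours in the RefSeq order of pig genes (assembly Sscrofa11.1) are PSMB8 and PSMB9, subunits of the immunoproteasome that cuts peptides for class I.

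The heavy chains and B2M were near each other in the tissues. SLA-1 ranged from 17.37 through 17.70 to 18.12 in the colon and from 16.82 through 17.41 to 18.07 in the liver, and its difference of 0.27 had a 95% CI of -0.17 to 0.71 (limma, adjusted p = 0.298). SLA-3 ranged from 15.50 through 16.61 to 17.11 and from 15.04 through 16.10 to 17.09, a difference of 0.43 (95% CI -0.27 to 1.14, limma, adjusted p = 0.296). B2M, the light chain shared by all class I molecules, ranged from 16.25 through 17.55 to 17.96 and from 16.08 through 16.96 to 17.73, a difference of 0.45 (95% CI -0.21 to 1.11, limma, adjusted p = 0.239).
For all 3 genes the ranges of the tissues overlapped. Their probes disagreed, however: 3 of 8 SLA-3 probes passed, with differences of 0.88 to 0.95, and 3 of 5 B2M probes, with 0.89 to 0.99, while 0 of 2 SLA-1 probes did. All 17 class I probes were above 0, although 2 probes turned below 0 when arrays were scaled to their 75th percentile instead, and the median over probes was 0.88 for class I and 2.12 for class II, against 0.01 over all probes.

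**Figure D1:**
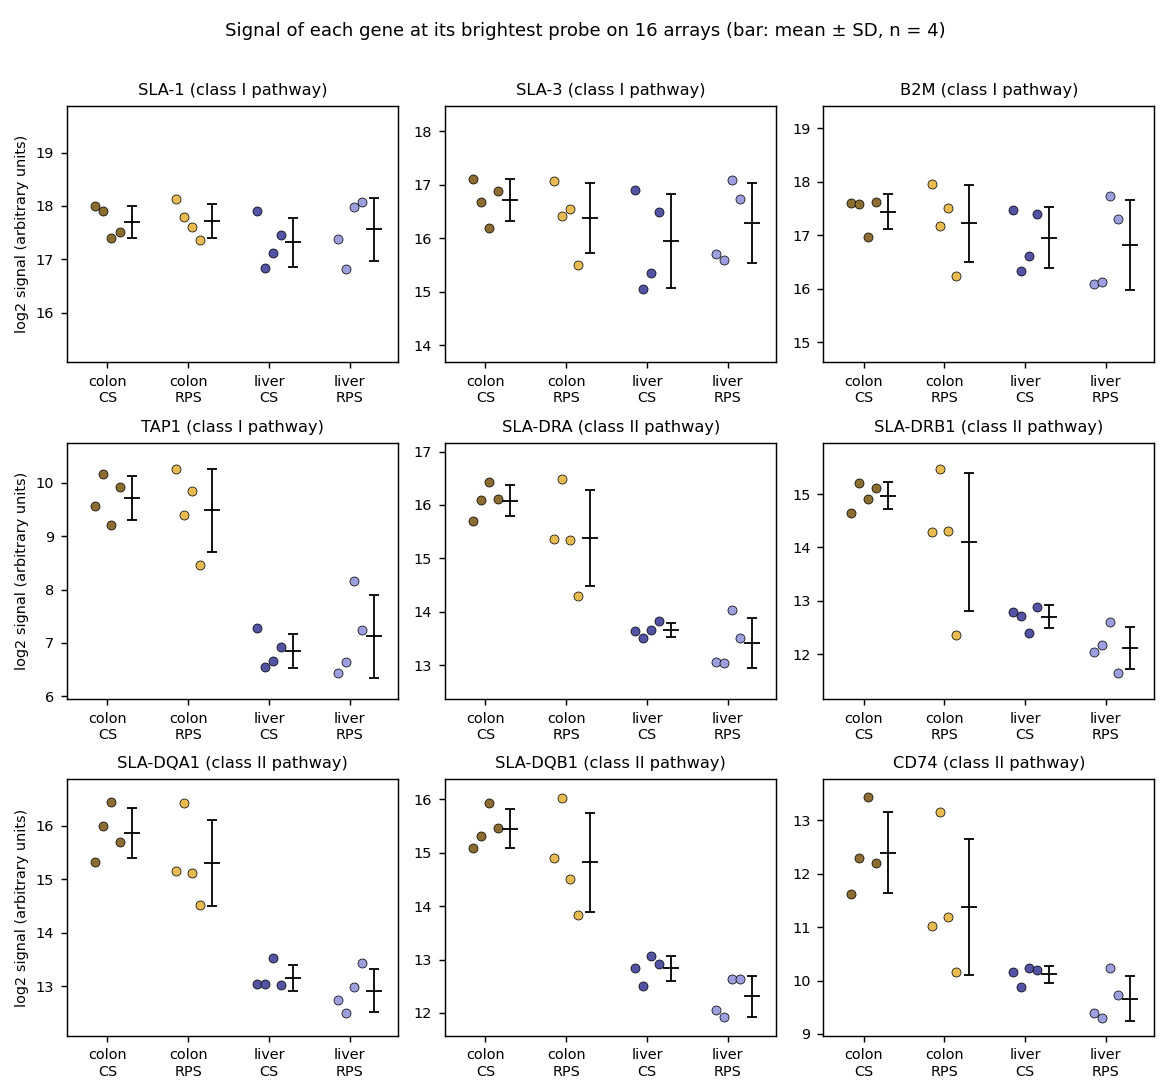
Log2 signal of the 9 genes at their brightest probe (y axis) on each of the 16 arrays, by tissue and diet on the x axis. Points are arrays and bars the mean ± SD of 4. In TAP1, SLA-DRA, SLA-DQA1 and SLA-DQB1 every colonic array lies above every hepatic one, while SLA-1, SLA-3 and B2M overlap between the tissues.

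**Figure D2:**
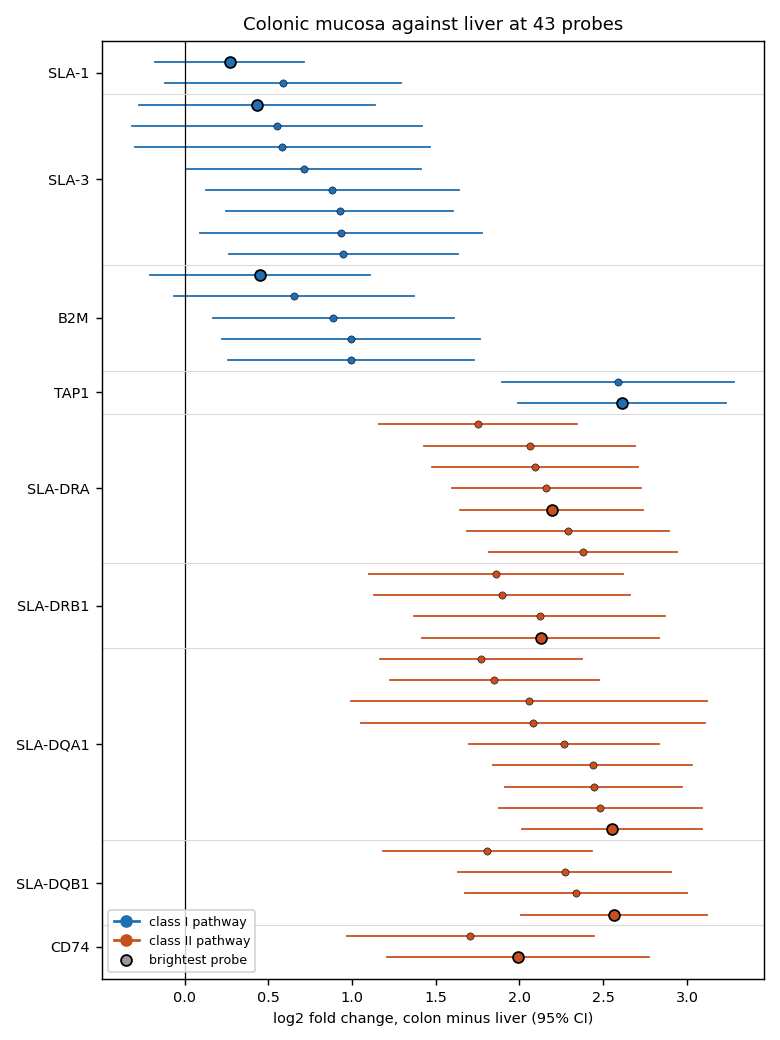
Difference of colon minus liver on the log2 scale (x axis) for each of the 43 probes, with the 95% confidence interval of the limma fit over 8 and 8 arrays, by gene. The 26 class II probes and the 2 TAP1 probes lie at 1.71 or above, and the other class I probes lie between 0.27 and 0.99.

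Other genes of the 2 pathways were read from lists. Of 14 further genes of the class I machinery, 9 had a named probe, of which 5 were higher in the colon, 3 lower and 1 did not pass. The 3 immunoproteasome subunits PSMB9 (2.99, 7.94-fold), PSMB8 (2.56, 5.90-fold) and PSMB10 (2.54, 5.84-fold) were higher, and so was PSME2, of the proteasome activator (1.22). The chaperones CALR (-0.88) and CANX (-0.65) were lower. TAP2, the partner of TAP1 in the peptide pump, gave -0.60 at its brightest probe and 2.25 at another (limma, adjusted p = 1.17e-06), so its direction depends on the probe.

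Among the 8 further SLA genes with a probe, 6 were higher in the colon. SLA-DMA and SLA-DMB, which exchange peptides on class II molecules, differed by 1.82 and 1.74, and SLA-DOA and SLA-DOB, which modulate that exchange, by 2.67 and 2.85. SLA-5 (0.89, limma, adjusted p = 0.0566) and SLA-7 (0.32) did not pass. Of 7 further genes of the class II machinery only 2 had a named probe: IFI30, a reductase that opens disulfide bonds in antigens, was higher (2.34, 5.07-fold), and RFX5, a transcription factor of class II genes, gave -1.83 at its brightest probe and 1.02 and 0.97 at the other 2.

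All 4 costimulation genes were higher in the colon, namely CD80 (2.89), CD40 (2.51), CD86 (2.42) and CD83 (1.61), which antigen-presenting cells use to activate T cells. On 4 of the 8 hepatic arrays CD80, and on 6 of them CD83, exceeded background clearly, so these differences are partly against background. Of 7 genes of the interferon γ axis, the main inducer of MHC genes, 6 were higher, with 2.56 for IFNG, 2.54 for IRF1 and 2.00 for IFNGR1. IFNG was well above background on 4 of the 8 hepatic arrays. Of 6 other partners of B2M 3 had a probe, and FCGRT, the neonatal Fc receptor, passed at its brightest probe (1.38-fold higher in the colon, limma, adjusted p = 0.0366) but not at the other 2 (-0.40 and 0.06), so its direction depends on the probe. At its brightest probe CD1E was well above background on no hepatic array and at least 3.33-fold higher in the colon. The other CD1E probe, well above background on only 3 of the 16 arrays, gave 0.11 and did not pass. CD1D gave 0.32 and did not pass.

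Markers of immune cells also differed between the tissues. The mean of the 4 B cell markers with a probe (of 6) was 6.81 to 11.78 on the colonic arrays and 4.08 to 5.04 on the hepatic ones, and all 4 were higher in the colon, among them MS4A1 by 23.8-fold and CD79A, which was well above background on 4 of 8 hepatic arrays, by 15.7-fold. The mean of the 8 T cell markers was 7.71 to 9.79 against 5.90 to 7.26, and all 8 were higher in the colon, CD3E by 12.5-fold. Of 9 macrophage and dendritic cell markers 3 had a probe, whose mean was 10.26 to 11.12 on colonic and 13.16 to 13.50 on hepatic arrays, and CD14 differed by -5.86 and CD163 by -2.06 while AIF1 (0.09) did not pass. The part of these cell types in the class II difference was not tested.

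The diet comparison asked whether replacing CS by RPS changed these genes. In the colon, no member passed. The class II genes had differences of RPS minus CS from -0.57 (SLA-DQA1) to -0.96 (CD74) on the log2 scale, and those of the class I genes lay between -0.35 (SLA-3) and 0.01 (SLA-1). Of the 43 probes, 0 passed an adjusted p under 0.05 in limma (0% of all probes), 0 an unadjusted p under 0.05 (5.42% of all probes) and 0 passed when the fold change had to exceed 1.5 as well (2.94%, and 1.32% downwards with RPS). Over all probes, 55.2% of the calls by both thresholds were higher with RPS, and 69% with 75th percentile scaling. The methods' t-test with the fold threshold called 0 of the 43, against 964 of all 43603 probes. None of the 43 kept the diets apart without overlap (6.52% of all probes, and 1.43% with RPS below CS). All 26 class II and 12 of 17 class I probes were below 0, as were 47.7% of all probes. The median was -0.82 over class II probes and -0.23 over class I probes, against 0.01 over all probes.

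SLA-DRA read 15.66, 16.06, 16.41 and 16.10 in the colon with CS and 15.29, 16.49, 15.28 and 14.24 with RPS (replicates 1 to 4). RPS 1, 3 and 4 were below all CS arrays, and RPS 2 was above all of them. The means were 16.06 ± 0.31 and 15.33 ± 0.92 (SD, n = 4 each). The difference of SLA-DRA was -0.73 (95% CI -1.77 to 0.31, SE 0.44, limma, unadjusted p = 0.142).

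SLA-DRB1 read 14.58, 15.14, 14.84 and 15.04 with CS and 14.24, 15.42, 14.26 and 12.42 with RPS. As for SLA-DRA, RPS 2 was above and the other 3 RPS arrays were below every CS array. The means of SLA-DRB1 were 14.90 ± 0.25 and 14.08 ± 1.24 (SD, n = 4). Their difference was -0.82 (95% CI -2.17 to 0.54, SE 0.58, limma, unadjusted p = 0.199).

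SLA-DQA1 read 15.26, 15.96, 16.44 and 15.65 with CS and 15.08, 16.42, 15.06 and 14.45 with RPS, and SLA-DQB1 read 15.02, 15.24, 15.90 and 15.40 with CS and 14.84, 15.998, 14.44 and 13.80 with RPS. RPS 1, 3 and 4 were again the lowest arrays of both DQ genes, and CS 3 and RPS 2 were the highest. The differences were -0.57 (95% CI -1.62 to 0.47) for SLA-DQA1 and -0.62 (95% CI -1.70 to 0.45) for SLA-DQB1. The lowest unadjusted p of any of the 43 probes was 0.0572, at another SLA-DQA1 probe with -1.08 (limma, 4 arrays per diet).

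CD74 read 11.74, 12.36, 13.43 and 12.27 with CS and 11.16, 13.17, 11.32 and 10.32 with RPS. CS 3 and RPS 2 were the highest CD74 arrays, and RPS 1, 3 and 4 were below all CS arrays. The means of CD74 were 12.45 ± 0.71 and 11.49 ± 1.20 (SD, n = 4). They differed by -0.96 (95% CI -2.45 to 0.54, SE 0.64, limma, unadjusted p = 0.175).

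The 4 class I pathway genes were ordered differently. B2M read 17.59, 17.58, 16.97 and 17.61 with CS and 17.94, 17.20, 17.51 and 16.24 with RPS. TAP1 read 9.74, 10.33, 9.40 and 10.09 with CS and 10.42, 9.58, 10.01 and 8.65 with RPS. RPS 1 was the highest array of both genes and RPS 4 the lowest, and CS 3, the highest CS array of the DQ genes and CD74, was the lowest CS array of B2M and TAP1. The differences were -0.22 (95% CI -1.07 to 0.64) for B2M and -0.23 (95% CI -1.16 to 0.70) for TAP1.

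SLA-1 read 17.98, 17.89, 17.41 and 17.51 in the colon with CS and 18.07, 17.77, 17.60 and 17.39 with RPS, and the groups covered nearly the same range. SLA-3 read 17.12, 16.66, 16.18 and 16.89 with CS and 17.08, 16.40, 16.53 and 15.44 with RPS, with RPS 4 apart at the low end. The differences were 0.01 (95% CI -0.45 to 0.47) for SLA-1 and -0.35 (95% CI -1.21 to 0.51) for SLA-3. The 8 SLA-3 probes spanned -0.39 to 0.44, and 3 of them were at -0.29 or below, each of which also lists a transcript besides that of SLA-3.

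The number of member probes that passed in the colon depended on the processing, as described at the end, and on single arrays. Leaving out RPS 2 changed it most. Without this array, 24 class II probes passed both thresholds, all lower with RPS (6.04% of all probes passed then), and the lowest adjusted p of a member was 0.307. At their brightest probes SLA-DRA gave -1.11, SLA-DRB1 -1.26, SLA-DQA1 -0.95, SLA-DQB1 -1.02 and CD74 -1.52 (limma, unadjusted p between 0.0112 and 0.0368). Without CS 1 the count was 2 and without RPS 4 it was 1, and the shares of all probes beside these counts are not reported here.

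In the colon, B cell marker means were highest and epithelial marker means lowest on the arrays with the highest class II means. The mean of the 4 B cell markers was 7.98, 9.91, 11.86 and 9.73 with CS and 7.03, 11.61, 8.25 and 7.53 with RPS, highest on CS 3 and RPS 2. The mean of the 8 epithelial markers was 13.99, 13.90, 11.96 and 13.54 with CS and 14.01, 12.56, 13.75 and 13.92 with RPS, lowest on the same pair of arrays. The mean of the 5 class II genes was 14.45, 14.95, 15.40 and 14.90 with CS and 14.12, 15.50, 14.07 and 13.05 with RPS, also highest on CS 3 and RPS 2. The diet differences of the B cell markers MS4A1 (-1.59), CD79A (-1.60) and BLNK (-0.15) did not pass, and all 3 were well above background on every colonic array.

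The mean of the 8 T cell markers was 9.08, 9.22, 9.94 and 8.89 with CS and 9.25, 9.34, 8.80 and 7.92 with RPS. All 8 T cell markers were below 0, and CD4, the coreceptor that binds class II, passed both thresholds at -0.99 (limma, unadjusted p = 0.0129, adjusted p = 0.756), though not at its other probe (-0.38). The costimulation genes read 8.78, 9.54, 10.83 and 9.28 with CS and 8.98, 10.78, 9.15 and 8.45 with RPS in the mean, with the 2 highest arrays again CS 3 and RPS 2. With both of these arrays left out, a choice made after the data were seen, 20 class II probes passed both thresholds, all lower with RPS (5.47% of all probes, lowest adjusted p of a member 0.269). The part of these cells in the class II values was not tested further.

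Markers of stroma were below 0 with RPS in the colon too. For the 3 smooth muscle markers with a probe (of 5) the mean was 12.12 to 12.41 with CS and 11.70 to 11.99 with RPS, without overlap, and all 3 were below 0, with ACTA2 at -0.52 (limma, unadjusted p = 0.00473, under the fold threshold). The 3 fibroblast markers (of 6) were below 0 too, and COL1A2, of collagen I, passed both thresholds at -0.72 (limma, unadjusted p = 0.0173) but not at its other probe (-0.27). Of the 3 macrophage and dendritic cell markers 2 were below 0, and their mean was 10.84 to 11.10 with CS and 10.41 to 11.23 with RPS. The 5 endothelial markers averaged 8.94 to 9.63 with CS and 9.06 to 9.51 with RPS. A dimmer probe each of ACTA2 (-0.70), CNN1 (-0.78), DCN (-0.70) and CD163 (-0.63) passed both thresholds. The remaining probes of these genes, the brightest included, did not. Unlike class II, the smooth muscle mean kept RPS 2 below every CS array, and the part of these cells in the class II values was not tested.

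**Figure D3:**
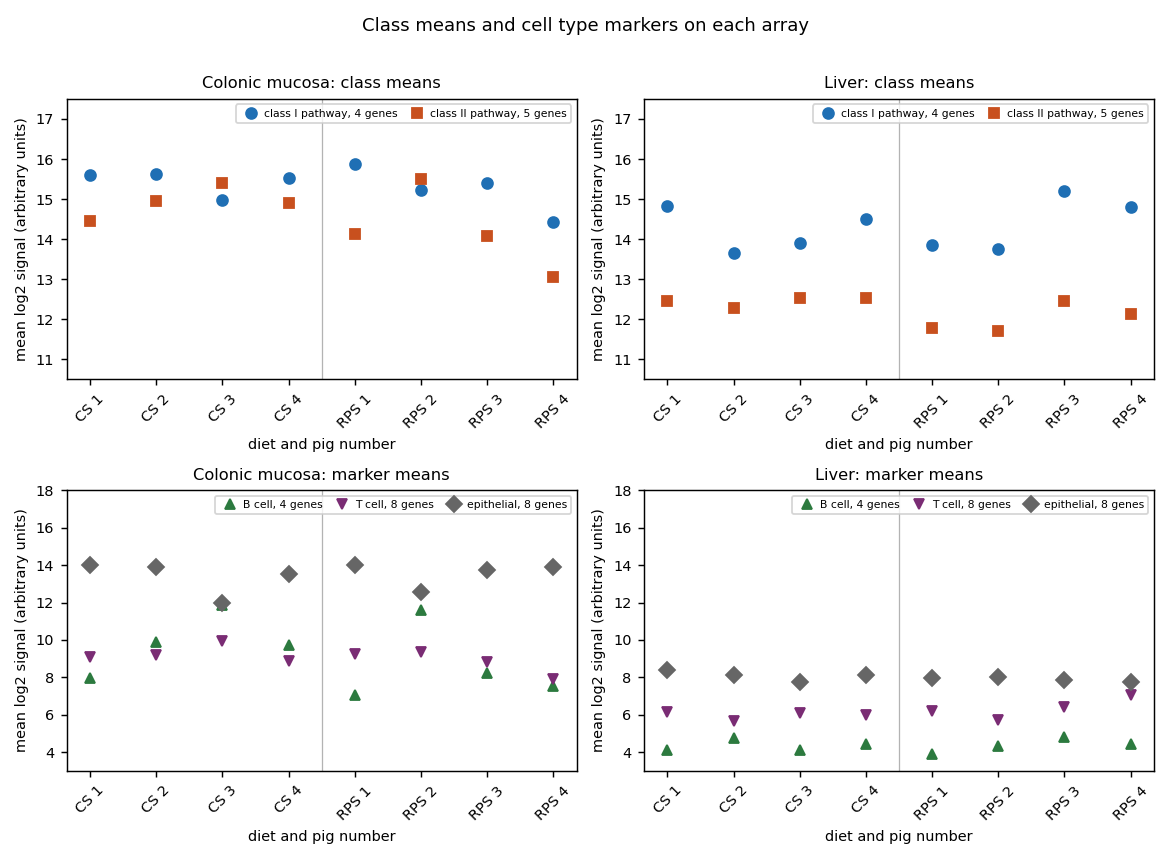
Mean log2 signal of the class I genes, the class II genes and the markers of B cells, T cells and epithelium (y axis) on each of the 8 colonic and 8 hepatic arrays (x axis, by diet and replicate). In the colon CS 3 and RPS 2 hold the highest class II and B cell means and the lowest epithelial means, while class I is highest on RPS 1.

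In the liver, 5 of the 43 probes passed both the threshold of p and that of fold change, against 3.56% of all probes, and all 5 were lower with RPS (1.76% of all probes passed in that direction). They were the 4 probes of SLA-DRB1 and 1 of SLA-DQB1. None passed an adjusted p under 0.05 in limma (0.00229% of all probes), and 6 passed the unadjusted p alone (7.59%). The methods' t-test called 2 with the fold threshold (1147 of all 43603 probes) and 0 after adjustment (1 of all probes). No probe kept the diets apart without overlap (4.45% of all probes, and 2.2% with RPS below CS). Below 0 were 25 of 26 class II and 4 of 17 class I probes (51% of all probes), and the medians were -0.34 over class II and 0.28 over class I probes.

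SLA-DRB1 read 12.77, 12.70, 12.35 and 12.87 in the liver with CS and 11.96, 12.11, 12.57 and 11.54 with RPS. RPS 1, 2 and 4 were below every CS array and RPS 3 was between them. The means were 12.67 ± 0.23 and 12.04 ± 0.42 (SD, n = 4). The difference was -0.63 (95% CI -1.15 to -0.10, SE 0.22), 1.54-fold lower (limma, unadjusted p = 0.0255, adjusted p = 0.580). The other SLA-DRB1 probes gave -0.79, -0.64 and -0.65, with unadjusted p of 0.0150, 0.0322 and 0.0338 in limma (adjusted p of 0.522 to 0.607). The call was also lost with 75th percentile scaling (-0.57, under the fold threshold), with all 16 arrays in 1 fit (unadjusted p = 0.229), with the replicate block (unadjusted p = 0.0809, both limma) and with a fold change above 2. It was lost without CS 1, CS 2, CS 4, RPS 1 or RPS 4, with unadjusted p between 0.0527 and 0.0644 in limma.

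SLA-DQB1 read 12.81, 12.47, 13.06 and 12.89 with CS and 11.97, 11.83, 12.59 and 12.60 with RPS in the liver. Only CS 2 lay below the 2 highest RPS arrays. The difference of SLA-DQB1 was -0.56 (95% CI -1.08 to -0.04, SE 0.22), 1.47-fold and so under the fold threshold (limma, unadjusted p = 0.0382, adjusted p = 0.621). The SLA-DQB1 probe that passed read 11.70, 11.30, 12.02 and 11.67 with CS and 10.73, 10.65, 11.43 and 11.47 with RPS, a difference of -0.60 (SE 0.25, limma, unadjusted p = 0.0419, adjusted p = 0.630).

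CD74 read 9.998, 9.72, 10.07 and 10.03 in the liver with CS and 9.22, 9.12, 10.07 and 9.55 with RPS, where RPS 3 was level with the highest CS array and the other 3 were below all CS arrays. Its difference of -0.47 did not pass (SE 0.21, limma, unadjusted p = 0.0640, adjusted p = 0.683). SLA-DRA read 13.66, 13.52, 13.69 and 13.84 with CS and 13.04, 13.02, 14.08 and 13.52 with RPS, a difference of -0.26 (95% CI -0.82 to 0.30). SLA-DQA1 read 13.02, 13.02, 13.54 and 13.00 with CS and 12.72, 12.45, 12.97 and 13.45 with RPS, a difference of -0.25. For SLA-DRA, RPS 3 was the highest of all 8 arrays, and for SLA-DQA1 only CS 3 exceeded RPS 4.

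The class I genes had no common direction in the liver. SLA-1 read 17.92, 16.83, 17.11 and 17.44 with CS and 17.36, 16.82, 18.01 and 18.11 with RPS, and SLA-3 read 16.90, 15.11, 15.42 and 16.50 with CS and 15.76, 15.65, 17.08 and 16.75 with RPS. B2M read 17.46, 16.34, 16.63 and 17.38 with CS and 16.11, 16.14, 17.75 and 17.29 with RPS, and TAP1 read 7.05, 6.30, 6.42 and 6.68 with CS and 6.20, 6.40, 7.96 and 7.02 with RPS. In every gene CS 1 and CS 4 were the higher CS arrays and RPS 3 and RPS 4 the higher RPS arrays, and the diets overlapped. The differences were 0.25 (95% CI -0.56 to 1.06) for SLA-1, 0.32 (95% CI -0.85 to 1.503) for SLA-3, -0.13 (95% CI -1.19 to 0.93) for B2M and 0.28 (95% CI -0.64 to 1.20) for TAP1. All 8 SLA-3 probes were above 0, from 0.28 to 0.79, and none passed.

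Beside the class II values of the liver, none of the 8 T cell markers was below 0 at its brightest probe. Dimmer probes of CD8A (-0.55), CD4 (-0.42) and CD3D (-0.33 and -0.07) were below 0, and those of CD3G, CD8B and CD2 were above 0. The direction of CD8A, CD4 and CD3D thus depends on the probe. The mean of the B cell markers was 3.89 to 4.78 over the 8 arrays. Markers of other cells were below 0: all 3 macrophage and dendritic cell markers were below 0, with CD14 at -0.28 (limma, unadjusted p = 0.00895, under the fold threshold), and their mean was 13.39 to 13.51 with CS and 13.14 to 13.49 with RPS. All 5 endothelial markers (mean 10.41 ± 0.10 with CS and 10.19 ± 0.23 with RPS, SD) and all 3 fibroblast markers (8.71 to 9.34 and 8.06 to 8.97) were below 0 as well. Of the 8 epithelial markers 5 were below 0, but among them KRT20 and CDX2 were well above background on no hepatic array. CDH1 passed both thresholds at -0.80 (limma, unadjusted p = 0.00606, adjusted p = 0.442), though not at its other probe (-0.46). A dimmer probe of EPCAM (-0.87) passed too, while KRT18 (0.49), KRT8 (0.30) and CLDN7 (0.14) were above 0. The part of these cells in the class II values of the liver was not tested. None of the genes of the pathway lists passed both diet thresholds in either tissue.

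**Figure D4:**
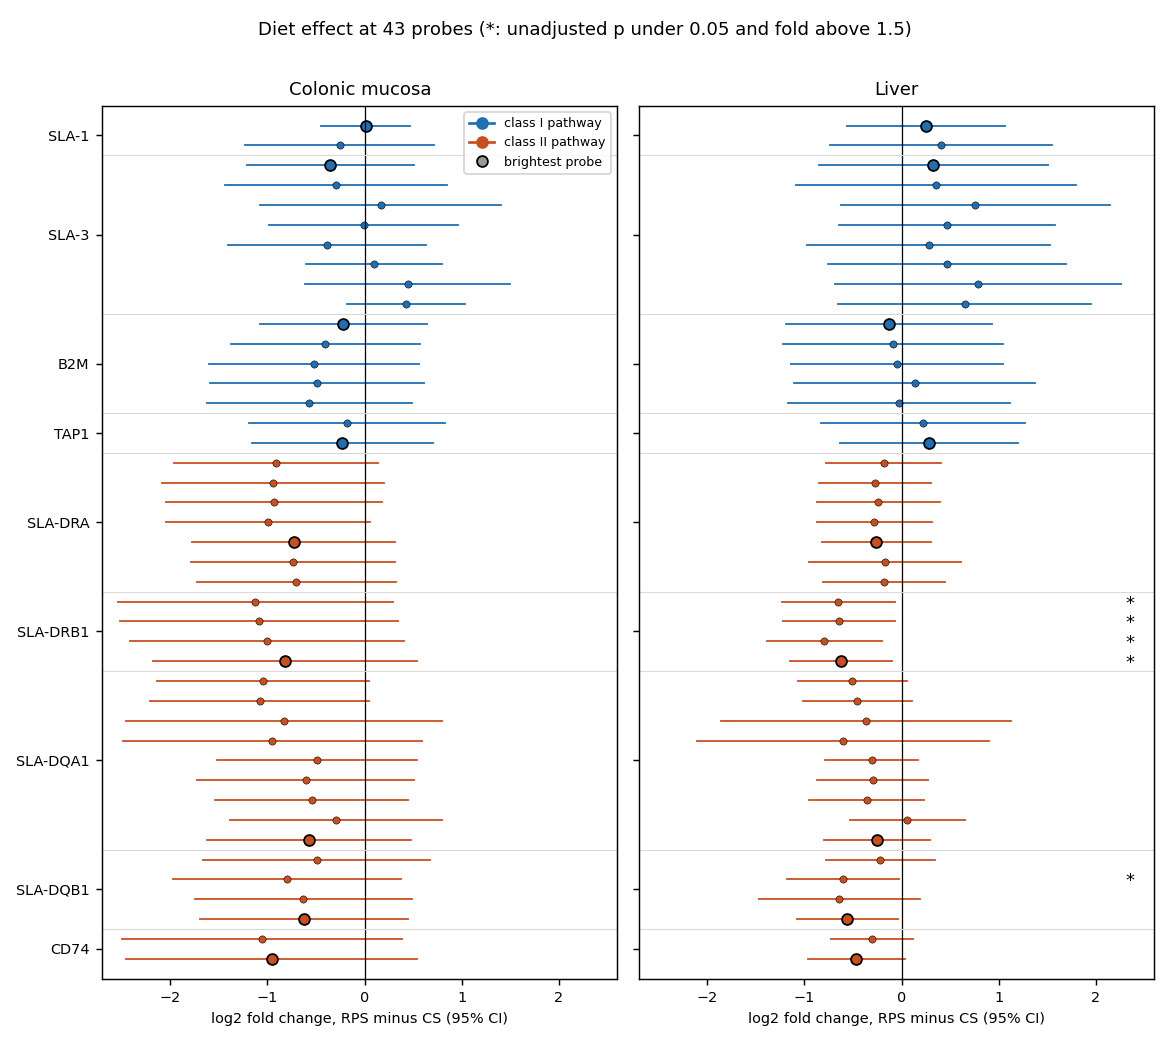
Log2 fold change of RPS against CS (x axis) for each of the 43 probes in the colon and in the liver, by gene, with an asterisk where both thresholds were passed (limma, 4 arrays per diet). No probe is marked in the colon and 5 are marked in the liver, 4 of SLA-DRB1 and 1 of SLA-DQB1.

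The difference between the diet effects of the tissues was itself tested, and no member passed. Of the 43 probes, 0 had an adjusted p under 0.05 in limma (0.00229% of all probes) and 0 an unadjusted p under 0.05, whether alone (4.72% of all probes) or with the fold threshold (3.76%). The effect in the colon minus that in the liver was -0.47 for SLA-DRA (95% CI -1.56 to 0.63), -0.27 for SLA-DRB1, -0.32 for SLA-DQA1, -0.11 for SLA-DQB1 and -0.55 for CD74. It was -0.22 for SLA-1, -0.67 for SLA-3, -0.08 for B2M and -0.51 for TAP1, so that class I and class II genes covered much the same range, and the median over probes was -0.48 for both classes.

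The order of the 4 groups was the same for all 5 class II genes, with colon CS highest, then colon RPS, liver CS and liver RPS. SLA-DRA, for instance, averaged 16.08, 15.37, 13.66 and 13.41 in that order on the scale of the 16 arrays, and CD74 averaged 12.39, 11.38, 10.12 and 9.66. Only the step between the tissues passed for these 2 genes, and the diets within a tissue did not differ beyond their spread. TAP1 had the order colon CS (9.72), colon RPS (9.48), liver RPS (7.12) and liver CS (6.85), and again the step between the tissues alone passed.

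Across the 8 colonic arrays, after each diet's mean was taken off, the class II genes had higher correlations with each other than with class I in the median. The median r was 0.951 over the 10 pairs of class II genes (0.801 to 0.989, median Spearman's rho 0.833) and 0.831 over the 6 pairs of class I genes (0.681 to 0.966, rho 0.726). Between the classes it was 0.192 over 20 pairs (-0.051 to 0.606, rho 0.119), and without RPS 2 and RPS 4, the arrays farthest from the median, it was -0.531, against 0.848 within class II and 0.726 within class I. SLA-DRB1 was an exception without this pair of arrays: its r was 0.418 with SLA-DRA, 0.274 with SLA-DQA1, 0.0626 with SLA-DQB1 and 0.121 with CD74, against 0.696 with TAP1 and 0.361 with B2M. These correlations are over 8 arrays that share a tissue and a normalization and are given as a description. In the liver the medians were 0.483 within class II (-0.586 to 0.972, rho 0.655), 0.908 within class I (0.771 to 0.954, rho 0.857) and 0.697 between the classes (0.057 to 0.922, rho 0.571). Without RPS 2 and RPS 3 of the liver they were 0.505, 0.911 and 0.556.

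**Figure D5:**
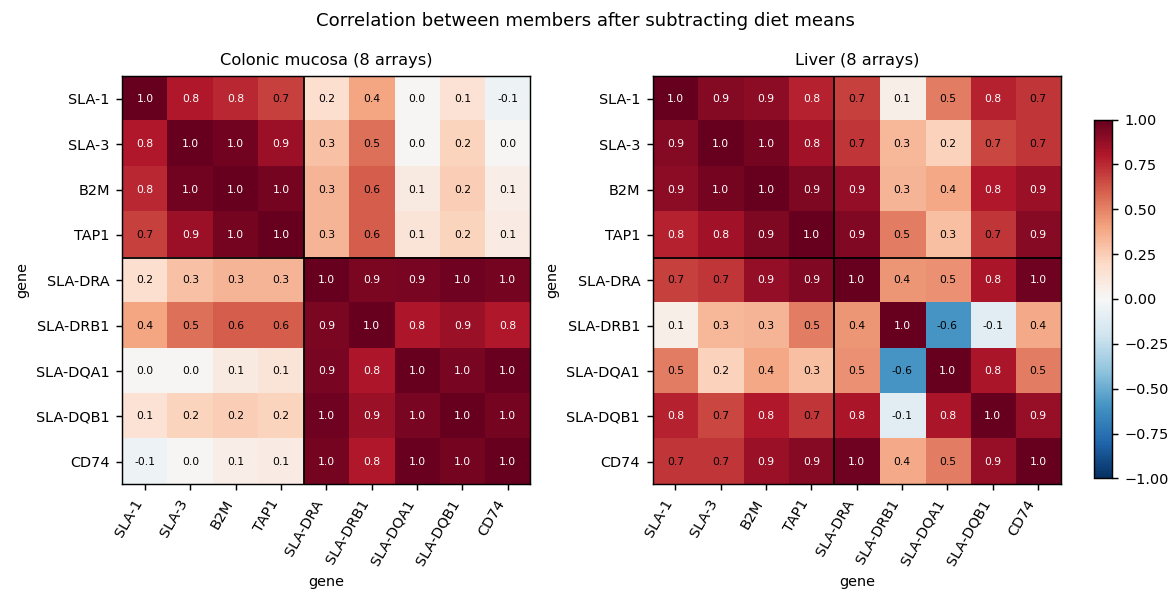
Pearson's r between the 9 genes over the 8 colonic and the 8 hepatic arrays, after the mean of each diet was taken off; both axes list the genes and the colour gives r. In the colon the class II block is at 0.801 or above and the class I block at 0.681 or above, while pairs across the classes lie between -0.051 and 0.606.

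Likeness among 5238 genes was read by Pearson's r over the 8 colonic arrays after each diet's mean was taken off. It therefore leaves out the difference between the diets. The genes most like SLA-DRA were FBXO7 (0.983), SLA-DMB (0.982), SLC3A2 (0.981), PIK3R5 (0.980) and SLA-DMA (0.979). Without RPS 2 and RPS 4 these were 0.965, 0.822, 0.968, 0.812 and 0.976. For B2M they were SLA-5 (0.986), PSMB9 (0.985), SDCBP (0.984), EDN3 (0.978) and CYP4A21 (0.978), and 0.916, 0.945, 0.963, 0.912 and 0.869 without CS 3 and RPS 4. The list of SLA-DRA thus held both chains of the DM molecule, and that of B2M an SLA heavy chain and an immunoproteasome subunit.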

How the data were processed

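Colonic mucosa and liver of pigs fed CS or RPS were measured on 16 porcine 1-colour arrays (45220 spots, 43803 of them not controls). The authors deposited the scanner's intensity values, background-subtracted by Agilent Feature Extraction 10.7 and not normalized between arrays, and log2 values, which they quantile normalized in GeneSpring and which served as an alternative. Quantile normalization pulls the arrays to 1 distribution, so a shift of all probes between groups would not be seen. The number of arrays limits the precision.

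From the intensities, control spots were left out and outlier spots set to missing (1 member probe, of B2M, on liver CS 4), log2 was taken, and quantile normalization was run on 8 arrays (1 tissue) for the diet comparisons and over all 16 for colon against liver and for the difference of diet effects, then averaged over the spots of a probe. Models were fitted over all 43603 probes with limma 3.58.1 (lmFit, eBayes) in R 4.3.3 with jsonlite 2.0.0 and the package data.table (1.17.8), with Benjamini-Hochberg adjustment over all probes. A diet call needed a fold change above 1.5 with an unadjusted p under 0.05, as in the methods; other comparisons used an adjusted p under 0.05. P-values set a difference against the spread between the arrays of a group. They do not cover differences between slides, each of which held arrays of 1 group.

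A gene was read at its brightest probe over the 16 arrays of both tissues. All member genes are named, up to 4 genes that passed per pathway list and direction, and the 5 genes most like SLA-DRA and B2M; others, such as markers and genes that did not pass, were named after their values were seen. The values of some list genes are not reported here. Lists were written from general knowledge, and the members and lists were chosen with earlier results of these data known. Of all probes, 14045 were matched to RefSeq gene names (10378 by symbol, 1005 by accession, 2200 by LOC number, 462 by older names) and 29558 were not. Probe sequences come from the deposited files, which state no genome build, so no coordinates are given.

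Alternatives were 75th percentile scaling, quantile normalization of the other set of arrays, normexp on the unsubtracted signals (offset 50), the authors' log2 values, outlier spots kept, dim probes left out, the methods' t-test, an intensity trend, the replicate number as a block, slide as a random block, all 16 arrays in 1 fit, probes averaged by gene, a fold change above 2 and each array left out. Because each slide held arrays of 1 group, the slide block cannot separate slide from diet or tissue. Leaving out dim probes removed no member probe, as all 43 exceeded background clearly on all 16 arrays. Leaving out both colonic arrays of highest B cell marker signal was added after seeing the data. Scripts were tested on simulated data. Figures were drawn with matplotlib 3.10.9.

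Deviations from group means correlated between same-numbered arrays with r of 0.159 to 0.334 between the tissues for CS and -0.076 to 0.073 for RPS, and of -0.507 to 0.549 (colon) and -0.164 to 0.108 (liver) between the diets, so not every pair exceeded 0.1 and the numbers were not taken to pair the arrays, although the 4 CS pairs of colon and liver did. Whether 1 pig gave both arrays is not given in the sources used here.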

Additional observations from a re-analysis of the deposited data

Results flagged for a closer look

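B2M on the colonic CS arrays stood apart on 1 array: CS 3 read 16.97 against 17.58 to 17.61 on the other 3, a gap of 0.952 of the group's range, above the 95% critical value of Dixon's test for 4 values. CS 3 is also the CS array with the highest class II and B cell marker means.

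SLA-DQA1 on the hepatic CS arrays did the same, with CS 3 at 13.54 against 13.00 to 13.02 on the others, a gap of 0.965 of the range. The 9 genes gave 36 groups of 4 arrays to examine, and chance alone marks about 1 in 20.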

How the results depend on the processing

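Under limma alternatives, shares of all probes are reported only without RPS 2 of the colon (6.04%) and without both colonic arrays of highest B cell marker signal (5.47%). The other counts below therefore have no share of all probes beside them. In the comparison of colon with liver, 28 to 38 member probes passed under the alternatives, and SLA-DRA, SLA-DRB1, SLA-DQA1, SLA-DQB1, CD74 and TAP1 were called in all 27 of them. Scaling to the 75th percentile turned SLA-1 to -0.15 and SLA-3 to -0.026 there. In the colon, where 0 probes passed the diet thresholds, 2 did with 75th percentile scaling, 9 with all 16 arrays in 1 fit and 20 (4 genes) without both arrays of highest B cell marker signal, and 0 to 24 (0 to 5 genes) when 1 array was left out, the most without RPS 2. In the liver, the 5 probes and 1 gene became 3 probes and 0 genes with 75th percentile scaling, 2 with the methods' t-test, 0 and 0 with all arrays in 1 fit, 2 and 0 with the replicate block, and 0 and 0 with a fold change above 2. Leaving out 1 hepatic array gave 1 to 8 probes and 0 to 3 genes: 1 without CS 1, CS 4 or RPS 1, 3 without CS 2, 2 without RPS 2 and 8 without RPS 3, where CD74 (-0.65) and SLA-DQB1 (-0.67) also passed, the latter again without CS 2 or RPS 4.

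Diet effects that turned in the colon were B2M at 0.0452 with 75th percentile scaling, SLA-1 at -0.12 and SLA-3 at 0.0112 with probes averaged by gene, and SLA-1 at -0.10 without both arrays of highest B cell marker signal. With 1 array left out, colonic SLA-1 ranged from -0.11 to 0.12, B2M from -0.45 to 0.11 and TAP1 from -0.48 to 0.11, and hepatic B2M from -0.44 to 0.11 and TAP1 from -0.076 to 0.51. For the difference of diet effects, in which 0 probes passed throughout, 75th percentile scaling gave SLA-1 0.0618, B2M 0.17 and SLA-DQB1 0.0151, and leaving out 1 array gave B2M -0.33 to 0.24, SLA-DRB1 -0.73 to 0.31 and SLA-DQB1 -0.50 to 0.22. The cause of these changes was not tested. With the replicate number as a block, 0 member probes passed in the colon, 2 in the liver, 31 between the tissues and 0 for the difference.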
